A study of Mus musculus with 46 samples.

Results

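Livers of 6 mice were profiled by chromatin immunoprecipitation sequencing (ChIP-seq) for H3K27ac, an acetylated lysine in the tail of histone H3, and the peaks called in each liver are described here against gene expression in the same tissue. These 6 samples, of 46 in the series, were chosen by their labels, and all carry a list of peaks. Male C57BL/6 mice had been fed for 20 weeks either a lipid-rich diet (LD, labelled HFD), in which lipid gave 60% and carbohydrate 20% of the energy, or a carbohydrate-rich diet (CD, labelled LFD), in which lipid gave 10% and carbohydrate 70%. Each diet had 3 H3K27ac livers and 5 livers with RNA-seq, and the labels carry no genetic change in any of them. Whether the H3K27ac and RNA libraries share mice is not given by the labels. The measure for a gene was its coverage, that is, the percentage of the bases within 5 kb on either side of its transcription start site (TSS window), or of its body from start to end, that lay under peaks. Of 25494 rows of the RNA count table, 25334 could be placed on the mm9 genome, and 15891 of these had a peak in the TSS window of at least 1 liver.

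H3K27ac is deposited by the acetyltransferases p300 and CBP at active promoters and enhancers, and it is removed by histone deacetylases. In liver, long stretches of the mark cover the genes that give the hepatocyte its identity, such as those for plasma proteins, and the mark moves with feeding, hormones and inflammation. A whole liver also holds macrophages, endothelial cells, stellate cells and lymphocytes, so that in bulk tissue more cells of a type and more of the mark (or of RNA) per cell cannot be told apart.

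The promoters of 4 genes are shown because their coverage stands for the patterns described further on. Each is given 5′ to 3′ along the gene, from 250 bases before to 50 bases after the TSS of the count table, read from the mm9 genome, with CpG dinucleotides in capitals. Itgax, the integrin subunit CD11c of myeloid cells, lies on the plus strand at chr7:135272832-135273131, and its promoter was wholly under peaks in all 3 LD livers and under none in the 3 CD livers. Cx3cr1, the fractalkine receptor of monocytes and macrophages, lies on the minus strand at chr9:119977365-119977664, and peaks covered 100%, 21.3% and 100% of its promoter in the LD livers and none of it in the CD livers. Pnpla5, a lipase of the patatin-like family, lies on the minus strand at chr15:83953556-83953855, with the reverse pattern: no promoter base was under a peak in an LD liver, and every base was in the 3 CD livers. Fabp5, a cytosolic fatty acid binding protein, lies on the plus strand at chr3:10012335-10012634, and its promoter was under a peak in all 6 livers, the diets differing in how far the peak ran into the gene.
Itgax: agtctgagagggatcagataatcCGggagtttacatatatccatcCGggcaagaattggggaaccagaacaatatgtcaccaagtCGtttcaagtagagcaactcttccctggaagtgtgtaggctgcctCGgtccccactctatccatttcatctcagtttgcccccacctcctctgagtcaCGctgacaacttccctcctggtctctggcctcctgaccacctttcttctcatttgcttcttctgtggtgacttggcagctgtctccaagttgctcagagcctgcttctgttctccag
Cx3cr1: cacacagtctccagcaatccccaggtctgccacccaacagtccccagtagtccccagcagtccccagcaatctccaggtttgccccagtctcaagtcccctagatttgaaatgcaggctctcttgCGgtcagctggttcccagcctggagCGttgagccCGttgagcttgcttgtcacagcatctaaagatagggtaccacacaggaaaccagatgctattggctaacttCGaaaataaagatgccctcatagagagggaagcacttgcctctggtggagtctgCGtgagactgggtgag
Pnpla5: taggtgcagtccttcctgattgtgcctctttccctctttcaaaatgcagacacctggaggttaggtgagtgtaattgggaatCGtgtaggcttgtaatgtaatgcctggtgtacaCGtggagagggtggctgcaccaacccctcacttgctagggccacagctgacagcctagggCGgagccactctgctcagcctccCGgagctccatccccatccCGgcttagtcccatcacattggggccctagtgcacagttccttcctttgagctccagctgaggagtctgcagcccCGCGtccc
Fabp5: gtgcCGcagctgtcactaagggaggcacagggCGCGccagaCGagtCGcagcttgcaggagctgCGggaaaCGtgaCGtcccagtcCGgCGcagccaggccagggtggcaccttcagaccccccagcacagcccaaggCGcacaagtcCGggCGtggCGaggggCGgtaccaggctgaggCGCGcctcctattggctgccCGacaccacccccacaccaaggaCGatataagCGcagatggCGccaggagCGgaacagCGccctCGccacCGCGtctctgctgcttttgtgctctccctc
The promoters of Itgax and Cx3cr1 hold 5 CpG each, that of Pnpla5 holds 7, and that of Fabp5 holds 26. The median over the 12579 promoters of genes tested both in coverage and in RNA was 20.

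More peaks were called in LD liver. The LD livers had 54114, 56987 and 53821 peaks, and the CD livers had 50183, 51608 and 48156. Every LD liver lay above every CD liver, with means of 54974 ± 1749 and 49982 ± 1735 (SD, n = 3 per diet), a difference of 9.99% (exact permutation test, two-sided, p = 0.1, the smallest that 3 against 3 can give). Together the peaks of a liver spanned 155.8, 160.4 and 149.8 Mb in the LD group against 141.7, 145.4 and 139.7 Mb in the CD group, which is 5.64% to 6.04% of the genome against 5.26% to 5.48%. This difference of 13.1 Mb was also without overlap between the diets (exact permutation test, p = 0.1). The lists hold no reads and no scores. In the read totals given with the study, which were not used in any test here, every LD library had fewer deduplicated reads than every CD library, and the part of depth in these differences was not tested.

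By number, LD exceeded CD in peaks of 1 to 10 kb. The median width was 2000 bp in each of the 6 livers, with quartiles at 1200 and 3200 bp, and the mean lay between 2783 and 2901 bp with overlapping diets (exact permutation test, p = 0.5). The excess was 12.5% in peaks of 2 to 5 kb, 12.9% in peaks of 5 to 10 kb and 9.95% in peaks of 1 to 2 kb, without overlap in any of these classes (exact permutation tests, p = 0.1 each). Peaks under 1 kb differed by 1.89% in number (exact permutation test, p = 0.4). As a share of all peaks, those under 1 kb made up 10.1%, 10.1% and 10.3% on LD against 10.9%, 10.6% and 11.5% on CD, lower in every LD liver (exact permutation test, p = 0.1), while the shares of the 1 to 2 kb and 5 to 10 kb classes overlapped between the diets. The broadest peaks, of 10 kb or more, numbered 1751, 1597 and 1460 on LD and 1551, 1580 and 1695 on CD, so that their ranges overlapped (exact permutation test, p = 1). They held 17.4%, 15.2% and 14.5% of the covered bases on LD and 17.1%, 17% and 19.3% on CD, and the longest peak of a liver spanned 89800 to 123400 bp.

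**Figure D1:**
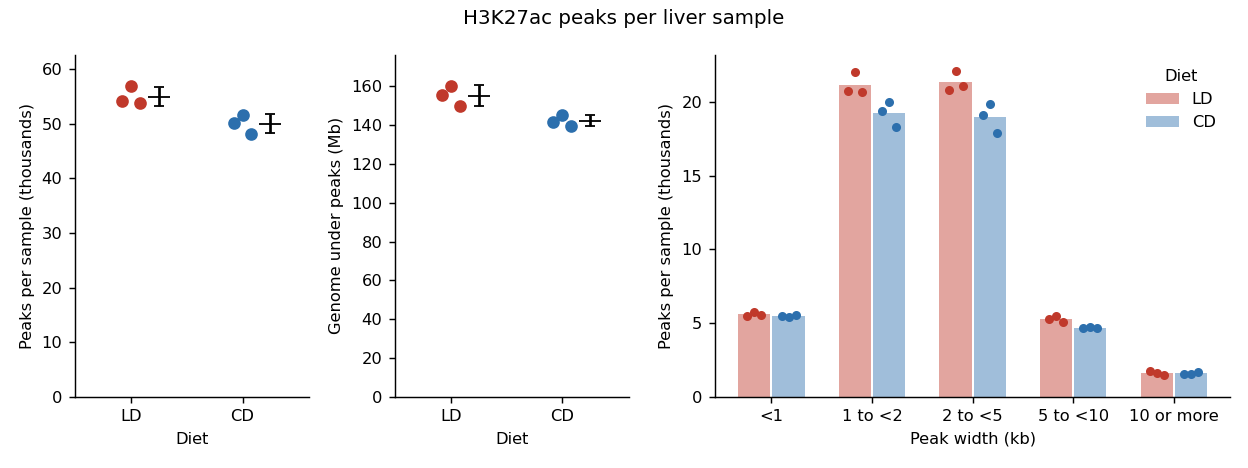
Left and middle, peaks (in units of 1000) and genome under peaks (Mb) in each liver (points), with mean and SD beside them. Right, peaks (in units of 1000) by width class in kb, as the mean of 3 livers (bars) and each liver (points). LD livers lie above CD livers except under 1 kb and from 10 kb up, where the points overlap.

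Most of the marked genome was common to the diets. Peaks of all 6 livers together covered 224.9 Mb, of which 89.99 Mb (40%) were under a peak in every liver. Bases under peaks in all 3 LD livers and no CD liver came to 4.24 Mb, and the reverse came to 1.67 Mb. The bases shared by a pair of livers, as a percentage of the bases that either covered, were 68.3% to 68.8% within LD, 67.7% to 69.5% within CD and 62.4% to 67.4% between the diets, so that each of the 9 pairs of different diets shared less than any pair of the same diet.

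Coverage followed whether a gene was expressed. Of the 13478 placed genes with enough RNA to be tested, 88.6% had a peak in the TSS window of all 6 livers and 4.87% in none. Of the other 11856 genes, 15.8% had a peak in all 6 livers and 74.1% in none. Averaged over all placed genes, TSS coverage came to 23.5%, 23.9% and 23.2% in the LD livers and 22.2%, 22.4% and 21.6% in the CD livers, a difference of 1.5 percentage points with no overlap (exact permutation test, p = 0.1). The TSS base itself lay in a peak at 12971, 13143 and 13148 genes on LD and 12723, 12851 and 12320 on CD. At 113 genes it did so in all LD livers and no CD liver, and at 10 genes the reverse.

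The tissue label was checked against marker genes. The 20 measured genes of hepatocyte products, which include albumin, apolipoproteins and fibrinogens, all had a peak in every liver, and their mean coverage was 87.4% to 89.4% on LD against 90.1% to 91.7% on CD. Of 20 genes of other tissues expected to be silent in liver, such as Pax6 and Myod1, none had a peak in all 6 livers, and their mean coverage was 0.400% to 0.800%. The 17 hepatocyte transcription factors were covered to 75.9% to 77.1% on LD and 76.3% to 77.5% on CD, with neither diet above the other at any of the 16 that were tested. The start site given for Hnf4a was an exception in level, with 26%, 18% and 4% of its window covered on LD and 16%, 28% and 20% on CD.

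Single genes were compared by limma, which fits all genes together so that 3 livers per diet share an estimate of spread. Of 15282 genes with a variable TSS window, coverage was higher on LD at 65 (0.425%) and higher on CD at 12 (0.0785%), at a Benjamini-Hochberg adjusted p under 0.05, and 2061 genes had an unadjusted p under 0.05. With the samples centred to equal mean coverage the calls were 26 and 14, so that the LD share went from 84.4% to 65%. The calls depended on single livers. None was left without CD liver 1, 2 or 3, while 76, 8 and 5 genes were called without LD livers 1, 2 and 3, and 34, 5 and 5 of the 77 genes were kept without LD livers 1, 2 and 3. Each limma result named here for a TSS window carries that limit. Some windows called towards LD, such as those of Ccr2, Cx3cr1 and Ccl4, had no peak in any CD liver. Those of Mep1b and Sall4, called towards CD, had none in any LD liver. Such windows entered the test only through the diet in which they were covered, so their adjusted p adds no support of its own. The same holds for some gene bodies, such as those of Ccr2 and Ccl4. A wider description counts genes with all 3 livers of a diet above all 3 of the other, which were 1797 (11.8%) for LD and 532 (3.48%) for CD, and such genes are called separated here. Over gene bodies of at least 2 kb, limma called 94 of 14330 (0.656%) towards LD and 16 (0.112%) towards CD, and 2132 (14.9%) and 687 (4.79%) were separated. The body calls centred to equal means were 43 and 14. Of the 110 body calls, 82, 55 and 44 were kept without LD livers 1, 2 and 3, and 20, 18 and 26 without CD livers 1, 2 and 3.

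RNA was compared between 5 livers per diet by edgeR's quasi-likelihood test, with 31707963 to 39012699 counts per library. Of 13494 genes, 1859 (13.8%) were higher on LD and 1498 (11.1%) higher on CD at an adjusted p under 0.05 and a fold change above 1.2. The question put to the peaks was whether genes that differed in RNA also differed in coverage.

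Genes higher in RNA on LD had more of the TSS window under peaks on LD. Over the 1856 placed genes of this kind, mean coverage was 38.4%, 40% and 39.8% on LD against 33.5%, 33% and 31.4% on CD. The 3 LD livers were above the 3 CD livers by 6.76 points on average, against 2.0 points over the 10124 genes not called in RNA. For the 1498 genes higher in RNA on CD, mean coverage was 47.0%, 46.5% and 44.4% on LD against 48.0%, 48.2% and 48.3% on CD, a difference of -2.15 points with the 3 CD livers on top. Set against all RNA-tested genes, whose mean rose by 2.19 points, the differences were 4.57 and -4.34 points, of like size in opposite directions (a description, with no test). Gene bodies gave differences of 5.31 and -3.18 points, against 1.07 for genes not called.

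The difference was also followed along the gene, as a description with no test. For genes higher in RNA on LD, coverage within 1 kb of the TSS was 73.8%, 76.4% and 76.4% on LD against 68.6%, 68.6% and 64.4% on CD, a gap of 8.35 points, and from 1 to 5 kb downstream the gap was 7.84 points. Upstream, from 5 to 1 kb before the TSS, it was 4.89 points. For genes higher in RNA on CD, coverage within 1 kb of the TSS was 82.6%, 83.1% and 81.7% on LD against 83.3%, 83.7% and 82.4% on CD, with overlapping livers and a gap of -0.67 points. Their gap was -3.53 points from 1 to 5 kb and -3.18 points from 5 to 10 kb downstream. From 5 to 1 kb upstream it was -1.51 points, with 27.5%, 27.1% and 25.6% on LD below 28%, 28.2% and 28.5% on CD, where genes not called gained 1.69 points. In the other zones genes not called also gained on LD, by 2.73 points within 1 kb of the TSS. Downstream they gained 1.94 points from 1 to 5 kb and 1.06 points from 5 to 10 kb. The gaps of both groups are to be read against these gains.

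**Figure D2:**
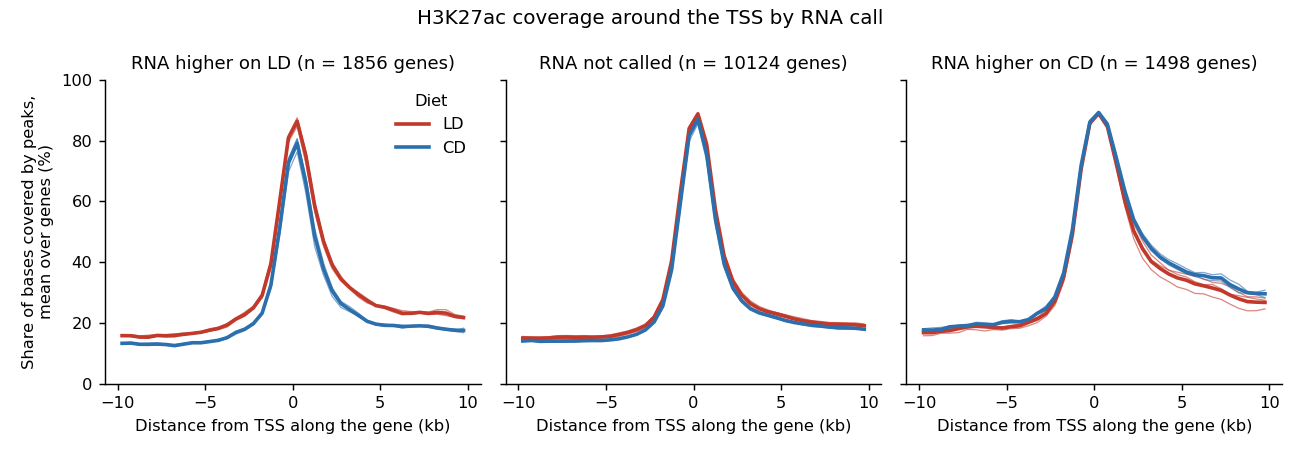
Percentage of bases under peaks in steps of 500 bp, as the mean over genes, by distance from the TSS in kb along the gene; thin lines are the 6 livers and thick lines the mean of each diet. LD runs above CD throughout for genes higher in RNA on LD, and CD runs above LD downstream of the TSS for genes higher in RNA on CD, where the summits coincide.

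Peak width over the start site followed the same pattern. Where the TSS lay in a peak in all 6 livers, the median width of that peak for the 1296 genes higher in RNA on LD was 3600 bp in each LD liver and 3000, 3000 and 2800 bp in the CD livers. For the 1279 genes higher in RNA on CD it was 4200, 4200 and 4000 bp on LD and 4600, 4400 and 4600 bp on CD. Over the 8317 genes not called, it was 3000, 3200 and 3000 bp against 3000, 3000 and 2800 bp. The peak was wider in all 3 LD livers than in any CD liver at 19.2% of the genes higher in RNA on LD and at 7.02% of the genes not called, and wider in all 3 CD livers at 12.4% of the genes higher in RNA on CD and at 2.99% of the genes not called.

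Read from the peaks, the larger the difference in coverage, the more often RNA differed in the same direction. At 74 genes with at least 20 points more coverage on CD, the median log2 fold change in RNA was -0.55, and 62.2% were higher in RNA on CD and none on LD. At 326 genes with at least 20 points more on LD, the median was 0.44, and 45.4% were higher in RNA on LD and 1.23% on CD. At the 7912 genes within 5 points, the median was -0.02, and 10.4% and 11% were called in the directions of LD and CD. Over 12592 genes the Spearman correlation of coverage difference with log2 fold change was 0.34 for TSS windows, and over 12260 genes it was 0.36 for gene bodies. These are descriptions across genes, which share the same livers and are not replicates.

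**Figure D3:**
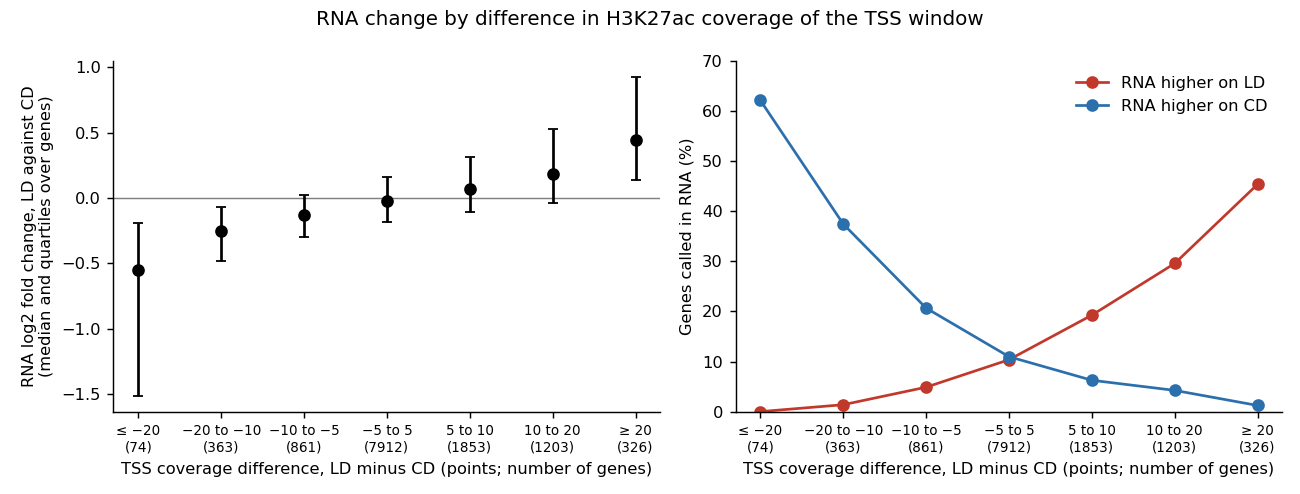
Genes grouped by the difference in TSS coverage (LD minus CD, in points, number of genes in brackets). Left, RNA log2 fold change of LD against CD (point, median; bars, quartiles over genes). Right, percentage of genes called in RNA in each direction. The median goes from -0.55 to 0.44 and the calls cross over between the outer groups.

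Separated genes gave the same reading. Of 1440 genes separated towards LD and tested in RNA, 456 were higher in RNA on LD, 49 on CD and 935 were not called. Of 441 separated towards CD, 174 were higher in RNA on CD, 12 on LD and 255 were not called. Of the 10711 genes not separated, 11.8% were higher in RNA on LD and 11% on CD. As a share of the RNA calls with a tested window, separation in the same direction was seen at 26.4% of the genes higher in RNA on LD and 12.4% of those higher on CD, beside 9.88% and 2.69% of the genes not called. All 10 RNA-tested genes with a limma call towards CD were higher in RNA on CD. Of the 47 with a limma call towards LD, 24 were higher in RNA on LD, none on CD and 23 were not called. Among the 12535 genes without a limma call, 13.6% were higher in RNA on LD and 11.1% on CD.

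The genes with the largest coverage difference among the 456 separated and called in RNA on LD are given first. Ccr2, the receptor that draws monocytes out of the blood, had 47.2%, 41.2% and 45.2% of its TSS window covered on LD and no peak there on CD. The diets were further apart over its body, with 78.7%, 69.0% and 86.2% on LD and 0% on CD. Peaks of LD liver 1 lay at chr9:124016801-124019600 and chr9:124020001-124022800, within and around the gene at chr9:124016922-124023879 on the plus strand. Ccr2 RNA was 8.58, 13.1, 9.74, 9.04 and 16 CPM (counts scaled to a common library size) on LD and 3.15, 3.0, 3.66, 2.86 and 3.43 CPM on CD. Every LD mouse lay above every CD mouse (log2 fold change 1.81, SE 0.17, edgeR adjusted p = 2.01e-05), and the TSS difference of 44.5 points had a limma adjusted p of 0.00276.

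Cx3cr1 was covered to 34%, 64% and 58% on LD and to 0% in each CD liver. Its RNA was 3.6, 10.6, 4.72, 7.19 and 11.4 CPM on LD and 1.34, 1.36, 1.65, 1.33 and 1.11 CPM on CD. No CD sample reached an LD sample in either measure, and both differences were called (52.0 points, limma adjusted p = 0.0471; log2 fold change 2.46, SE 0.31, edgeR adjusted p = 0.000227).

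Itgax had 66%, 68.8% and 58% of its window under peaks on LD and 12%, 16% and 20% on CD. In the LD livers the peaks held the TSS and ran 1881 to 2281 bp upstream of it. In the CD livers the sole peak in the window was 1200, 1600 and 2000 bp wide and lay inside the gene. The difference of 48.3 points had a limma adjusted p of 0.0296, and RNA was 8.53 ± 3.96 CPM on LD against 1.53 ± 0.0917 CPM on CD (SD, n = 5; log2 fold change 2.48, edgeR adjusted p = 0.00015).

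Ccl4, a chemokine of activated macrophages and lymphocytes, was covered to 44%, 45.2% and 42% in its TSS window and to 100%, 100% and 91.2% over its body on LD, with no peak on CD. The body difference of 97.1 points was the largest that limma called over genes (adjusted p = 0.00182). Its RNA was low, at 1.03, 1.36, 0.683, 0.455 and 0.531 CPM on LD and 0.287, 0.0522, 0, 0.0318 and 0.0873 CPM on CD, without overlap (log2 fold change 3.16, SE 0.58, edgeR adjusted p = 0.00154).

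The other genes chosen by the same rule had window differences of 38.7 to 50.3 points. Il21r, the interleukin 21 receptor, was covered to 70%, 81.4% and 71.4% on LD and 34%, 0% and 38% on CD. Selplg, the selectin ligand of leukocytes, was covered to 38.9%, 60% and 68% against 12%, 12% and 4%. The LD livers stood above the CD livers at both, but limma called neither window (adjusted p = 0.0866 and 0.0592). Sash3, a signalling adapter of lymphocytes, Myo1f, a myosin of leukocytes, and F630028O10Rik, which has the miRNA gene Mir223 within 10 kb, lay between 28% and 69.9% on LD and between 0% and 28% on CD, with adjusted p of 0.0875, 0.0802 and 0.0901. Over gene bodies limma called Selplg, by 32.8 points, Sash3, by 13.2 points, and F630028O10Rik, by 86.4 points (adjusted p = 0.0401, 0.0479 and 0.0191). Cyth4, an exchange factor for small GTPases in blood cells, was called at 64%, 64% and 70% on LD and 32%, 30% and 20% on CD (adjusted p = 0.0337). Arl5c and Ppcs, an enzyme of coenzyme A synthesis which has Ccdc30 and Zmynd12 within 10 kb, had adjusted p of 0.0611 each. Over gene bodies the rule added Dok2, an adapter of haematopoietic cells, Dusp2, a phosphatase of MAP kinases, and Gadd45b, a stress protein. The body of Dusp2 was wholly covered in the LD livers and covered to 31.8% in each CD liver (adjusted p = 0.00238), as the peak over its start ended 705 bp into the gene on CD and 2505 to 2705 bp into it on LD. Its RNA was 0.648 ± 0.198 CPM on LD against 0.164 ± 0.0804 CPM on CD (SD, n = 5; edgeR adjusted p = 0.00146). In RNA, the calls of Arl5c, Dok2, Il21r and Selplg were lost in 8, 5, 4 and 3 of the settings tried, and LD mouse 2 stood above the other LD mice for Selplg, Myo1f and Cyth4.

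Macrophage markers were taken as a list, which holds Ccr2, Cx3cr1 and Itgax. Mean TSS coverage over the 22 measured markers was 38.2%, 46.8% and 43.3% on LD against 28.7%, 25.8% and 27.3% on CD. Of 20 tested, 10 were separated towards LD and none towards CD, beside 11.8% and 3.48% of all tested windows, with a median difference of 16 points beside 1.55 over all tested genes. Limma called 5 of them on LD, Ccr2, Cx3cr1, Itgax, Trem2 (18%, 24% and 20% against 0%) and Cd14 (30%, 28% and 30% against 16%, 14% and 14%). Of 22 tested in RNA, 9 were higher on LD and none on CD, beside 13.8% and 11.1% of all genes. Among markers of resident Kupffer cells, Cd5l, Clec4f, Timd4 and Vsig4 had overlapping windows and no call in coverage or RNA. Cd5l was covered to 20%, 52% and 44% on LD and 10%, 0% and 22% on CD, and its body was separated towards LD (27.8% against 7.07%, limma adjusted p = 0.237). Clec4f was covered to 0%, 38% and 30.9% on LD and 42%, 10% and 32.9% on CD, and Csf1r to 48.3%, 62% and 54.3% against 54.3%, 52.3% and 42.3%. Csf1r and Adgre1, which macrophages share more widely, were not called in RNA either. Marco had no peak in its window in any liver. The summed RNA of the 22 markers ranged from 889 to 2042 CPM on LD and from 630 to 1187 CPM on CD, so that the diets overlapped. The part of a changed number of macrophages in the coverage of single genes was not tested.

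Markers of other cells outside the hepatocyte are given with the same shares as the background, 11.8% of windows towards LD and 3.48% towards CD, and 13.8% and 11.1% of genes in RNA. The 16 lymphocyte markers were covered to 17.6%, 14.3% and 18.2% on LD against 6.16%, 7.70% and 5.83% on CD, and 4 of 11 tested were separated, all towards LD, with 4 RNA calls on LD and 1 on CD. Ptprc, the leukocyte antigen CD45, was the sole limma call among them, at 52%, 52% and 56% against 30%, 30% and 32% (adjusted p = 0.0459). Their summed RNA was 37.9 to 83.0 CPM on LD and 30.0 to 38.2 CPM on CD, and Cd8a, Gzma, Gzmb and Klrb1c were among the markers with no peak. Among 8 cholangiocyte markers, 3 of 7 tested were separated towards LD, and Krt23, a keratin, was covered to 52%, 51.8% and 40% on LD and 26%, 16% and 10% on CD (limma adjusted p = 0.0687; RNA log2 fold change 2.2, edgeR adjusted p = 0.00039). The 14 endothelial markers had 1 separated gene of 12 tested and 1 RNA call, and the 18 stellate cell and matrix markers had 2 of 16, both near that background for windows, with 10 RNA calls on LD and 1 on CD. Col1a1 and Col1a2, the chains of type I collagen, were higher in RNA on LD while their windows overlapped between the diets, at 24%, 24% and 32% against 18%, 30% and 0% for Col1a1 and 34%, 20% and 28% against 18%, 24% and 0% for Col1a2. The body of Col1a1 was separated towards LD, at 13.6% against 7.26%, and not called by limma (adjusted p = 0.384). The part of these cell types in the gains of coverage was not tested.

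Of the 174 genes with more coverage and more RNA on CD, those with the largest differences follow. Fabp5 had 46.2%, 36.2% and 30.2% of its TSS window covered on LD and 82%, 76% and 86% on CD. The peak at its promoter was 2200, 2800 and 2000 bp wide on LD and 13200, 6600 and 6400 bp wide on CD. It ended 1415 to 1615 bp into the gene on LD and beyond the gene's end on CD, so that the body was covered to 35.2%, 40.1% and 35.2% against 100% in each CD liver (limma adjusted p = 0.00274 for the body and 0.0337 for the window). Fabp5 RNA was 7.66, 12.9, 9.90, 9.13 and 11.2 CPM on LD and 287, 233, 56.8, 222 and 110 CPM on CD, with all CD mice above all LD mice (17.9-fold, log2 fold change -4.16, SE 0.46, edgeR adjusted p = 0.000367). Genes with processed copies, such as Fabp5, or with close paralogs, such as the Hsd3b family, can share reads with them, and their RNA values carry that uncertainty.

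Pnpla5 and Pnpla3, lipase genes near each other on chromosome 15, were both less covered on LD. Pnpla5, at chr15:83943051-83953605 on the minus strand, was covered to 12%, 0% and 20% in its TSS window on LD and to 64.0%, 66.0% and 62.0% on CD. On CD a single peak of 13200, 13000 and 13000 bp spanned the whole gene, and on LD peaks of 800 or 1200 bp inside the gene reached the window in 2 of 3 livers. Its RNA was 0.622, 0.478, 0.652, 1.0 and 1.09 CPM on LD and 11.7, 7.94, 2.96, 2.89 and 4.57 CPM on CD, without overlap (log2 fold change -2.97, SE 0.44, edgeR adjusted p = 0.000773). Pnpla3, a lipid droplet protein induced by carbohydrate feeding, was covered over its body to 25.6%, 17.3% and 21.7% on LD and 93.6%, 77.9% and 70.5% on CD (limma adjusted p = 0.0291). Its RNA went from 19.0 ± 6.68 CPM on CD to 3.85 ± 0.968 CPM on LD (SD, n = 5; log2 fold change -2.30, edgeR adjusted p = 0.000107).

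Hsd3b5, a steroid dehydrogenase of male mouse liver, was covered to 16%, 0% and 0% on LD and 40%, 42% and 48% on CD (limma adjusted p = 0.0439). Its RNA was 18.4, 29.2, 1.61, 0.243 and 0.112 CPM on LD and 429, 393, 408, 442 and 360 CPM on CD. The CD mice lay close together and the LD mice spread widely below them (40.5-fold, log2 fold change -5.34, SE 1.21, edgeR adjusted p = 0.0126). Adgrf1, an adhesion receptor coupled to G proteins, showed the same order, with 16.9%, 0% and 0% against 38.9%, 46.9% and 44.9% of its window (limma adjusted p = 0.0459) and a log2 fold change of -5.69 in RNA. Lepr, the leptin receptor, had 0%, 10% and 28% of its window covered on LD and 48%, 71.9% and 67.9% on CD, a difference that limma did not call (adjusted p = 0.0713), and RNA of 7.36 ± 1.64 CPM on LD against 24.0 ± 5.74 CPM on CD (SD, n = 5; log2 fold change -1.70, edgeR adjusted p = 8.73e-05). Hamp, the iron hormone hepcidin, had 42.5%, 50.5% and 6% on LD and 66.5%, 66.5% and 78.5% on CD, also not called (adjusted p = 0.209), with a log2 fold change of -1.98.

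The remaining genes of this direction were Serpina4-ps1, a serpin pseudogene, C8b, a subunit of the complement attack complex, Hsd3b2, Keg1, Galc, a lysosomal galactosidase, and Abca8a, a transporter of the ABC family. Their windows lay between 18% and 60.5% on LD and between 48.7% and 96% on CD. Serpina4-ps1 and Galc were called by limma (adjusted p = 0.0296 and 0.0403), and Galc has Gpr65 within 10 kb. The RNA call of Hsd3b2 was lost in 2 of the settings tried, and 1 CD mouse stood far above the others for Serpina4-ps1. Over gene bodies the rule added Tmem25 and Avpr1a, the vasopressin receptor of hepatocytes. The body of Avpr1a was covered to 63.7%, 31.4% and 41.3% on LD and 100%, 91.9% and 100% on CD, not called by limma (adjusted p = 0.0692), while its RNA went from 19.4 ± 2.0 CPM on CD to 3.51 ± 1.17 CPM on LD (SD, n = 5; edgeR adjusted p = 8.57e-06).

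**Figure D4:**
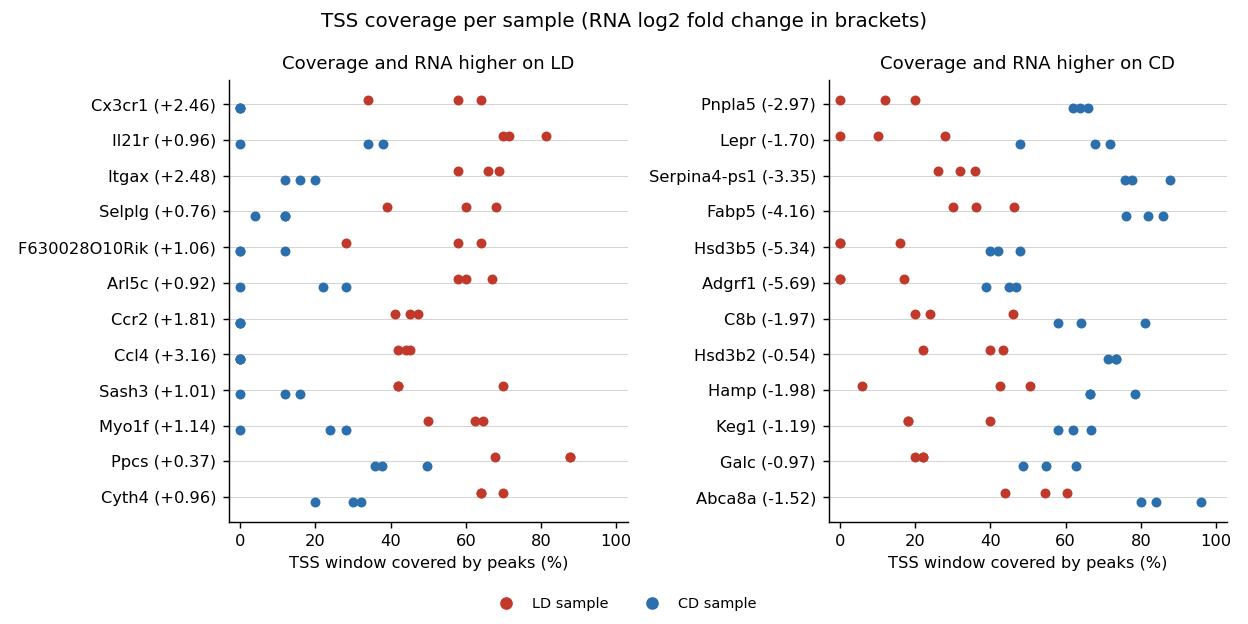
TSS window under peaks (%) in each of 3 LD and 3 CD livers (points) for the 12 genes per direction with the largest coverage difference among those separated and called in RNA the same way, with the RNA log2 fold change of LD against CD in brackets. The genes were chosen for this separation, and 4 of the 12 on the left were covered to 0% in 2 or more CD livers.

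Pathways of hepatocyte metabolism were described by lists of genes. For de novo lipogenesis, the synthesis of fatty acids from carbohydrate, mean coverage of 20 TSS windows was 73.8%, 71.8% and 72.8% on LD against 79.0%, 76.7% and 77.7% on CD. Of 17 tested windows 5 were separated towards CD and none towards LD, and of 18 bodies 9 and 1, beside 3.48% and 11.8% of all tested windows and 4.79% and 14.9% of all bodies. In RNA 11 of the 20 genes were higher on CD and 2 on LD, beside 11.1% and 13.8% of all genes. Acacb, the mitochondrial acetyl-CoA carboxylase, was the limma call among the windows, at 22.7%, 22.7% and 26.7% on LD and 52%, 52% and 54% on CD (adjusted p = 0.0337; RNA log2 fold change -0.98, edgeR adjusted p = 0.00017). Acly, ATP citrate lyase, lay at 82.9%, 86.9% and 88% against 100%, 96.9% and 94.9%, and Fasn, fatty acid synthase, at 90%, 80% and 88% against 96%, 96% and 94%, and neither was called (limma adjusted p = 0.123 and 0.267). At Acaca, the cytosolic carboxylase, the window was covered in full in all 6 livers and the difference lay in the body, with 17.1% against 30.2% (adjusted p = 0.106).

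Fatty acid oxidation and ketogenesis, the breakdown of fat for energy and ketone bodies, had more window coverage on LD. Mean coverage of 32 windows was 70.4%, 66.8% and 67.8% on LD against 60.7%, 60.5% and 65.5% on CD, without overlap. Of 30 tested windows 8 were separated towards LD and 2 towards CD, beside 11.8% and 3.48% of all windows, with a median difference of 4.79 points beside 1.55 over all tested genes, and limma called none. Of 31 gene bodies 4 were separated towards LD and 2 towards CD, beside 14.9% and 4.79% of all bodies. In RNA 21 of the 32 genes were higher on LD and none on CD, beside 13.8% and 11.1% of all genes. Acadm, the medium-chain acyl-CoA dehydrogenase, was covered to 91.9%, 93.9% and 82% on LD and 72%, 73.9% and 67.9% on CD (limma adjusted p = 0.102; RNA log2 fold change 0.62, edgeR adjusted p = 0.0001). Acot1, Acot2, Acot3 and Acot4, which hydrolyse acyl-CoA and lie in 1 cluster on chromosome 12, were all separated towards LD, but their windows and reads are not independent of one another.

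Among 24 genes of lipid droplets and lipid storage, 8 windows were separated towards LD and none towards CD, beside 11.8% and 3.48% of all tested windows, mean coverage was 58.8%, 61.2% and 60.5% against 54.2%, 54.9% and 53.7%, and 14 of 23 genes tested in RNA were higher on LD, beside 13.8% of all genes. Cidea, which fuses lipid droplets, had a peak covering 14% of its window in each LD liver and none on CD (limma adjusted p = 0.0403; RNA log2 fold change 5.58, SE 0.27, edgeR adjusted p = 2.6e-06). Its neighbour B430212C06Rik had the same window values and was also higher in RNA on LD (log2 fold change 4.31), so the peak cannot be assigned to 1 of the genes. Cidec, of the same family as Cidea, had a fold change in RNA like that of Cidea (log2 5.44) with a window covered to 100%, 100% and 100% on LD and 96%, 100% and 96% on CD. Fabp4, a fatty acid binding protein of adipocytes and macrophages, lay at 61.8%, 51.8% and 81.8% on LD and 28%, 37.8% and 36% on CD (limma adjusted p = 0.141), with a log2 fold change of 1.41. At Cidec RNA thus differed while the window was nearly full on both diets.

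Genes of bile acid synthesis and transport had mean coverage of 71.8%, 65.4% and 63.3% on LD and 73.8%, 71.8% and 81.2% on CD, so that the highest LD liver and the lowest CD liver were level to the digits given. Of 15 windows 5 were separated towards CD and none towards LD, beside 3.48% and 11.8% of all windows, with no limma call. Slc10a1, the sodium-dependent bile acid uptake carrier, was covered to 94%, 65.4% and 81.4% on LD and to 100% in each CD liver (limma adjusted p = 0.261; RNA log2 fold change -1.09, edgeR adjusted p = 3.4e-05). For gluconeogenesis and glycolysis, 4 of 15 windows were separated towards CD and 1 towards LD, and for bodies 8 and 1 of 16, beside 4.79% and 14.9% of all bodies. Sds, serine dehydratase, had its window covered to 70.5%, 88.5% and 66.5% on LD and to 100% on CD (limma adjusted p = 0.11), and Irs2, which carries the insulin signal, to 88%, 96% and 86% against 100% (adjusted p = 0.218), and both were lower in RNA on LD. Of 15 tested windows of hepatocyte products 3 were separated towards CD and none towards LD, beside 3.48% and 11.8% of all windows. They were those of Ass1 and Cps1, enzymes of the urea cycle, and of Apob, which was not called in RNA. In RNA 9 of the 20 hepatocyte products were higher on CD and 2 on LD, beside 11.1% and 13.8% of all genes. Ass1 lay at 74%, 72% and 76% against 94%, 94% and 92% (limma adjusted p = 0.0431) and Cps1 at 82%, 78% and 70% against 96%, 94% and 96% (adjusted p = 0.0779), with log2 fold changes of -0.54 and -1.33 in RNA.

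The other lists are read against the same background, 11.8% of windows towards LD and 3.48% towards CD, and 13.8% and 11.1% of genes in RNA. The 17 acute phase genes had 4 windows separated towards LD and 1 towards CD and 11 RNA calls on LD, and Orm3, an orosomucoid with near-identical neighbours, was called at 69.9%, 65.9% and 77.9% against 40%, 46% and 41.9% (limma adjusted p = 0.0471). Galectins, S100 proteins and annexins had 3 of 16 separated towards LD and none towards CD, and 13 of 18 were higher in RNA on LD. AP-1 and stress factors had 2 of 15 towards LD and none towards CD, and the 7 adipocyte markers 1 of 5, on few genes each. Cholesterol synthesis had 3 of 20 towards CD and none towards LD, with 5 RNA calls on LD and 1 on CD. The circadian clock had 1 in each direction, and the xenobiotic cytochrome P450 genes had 1 towards LD and 2 towards CD.

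**Figure D5:**
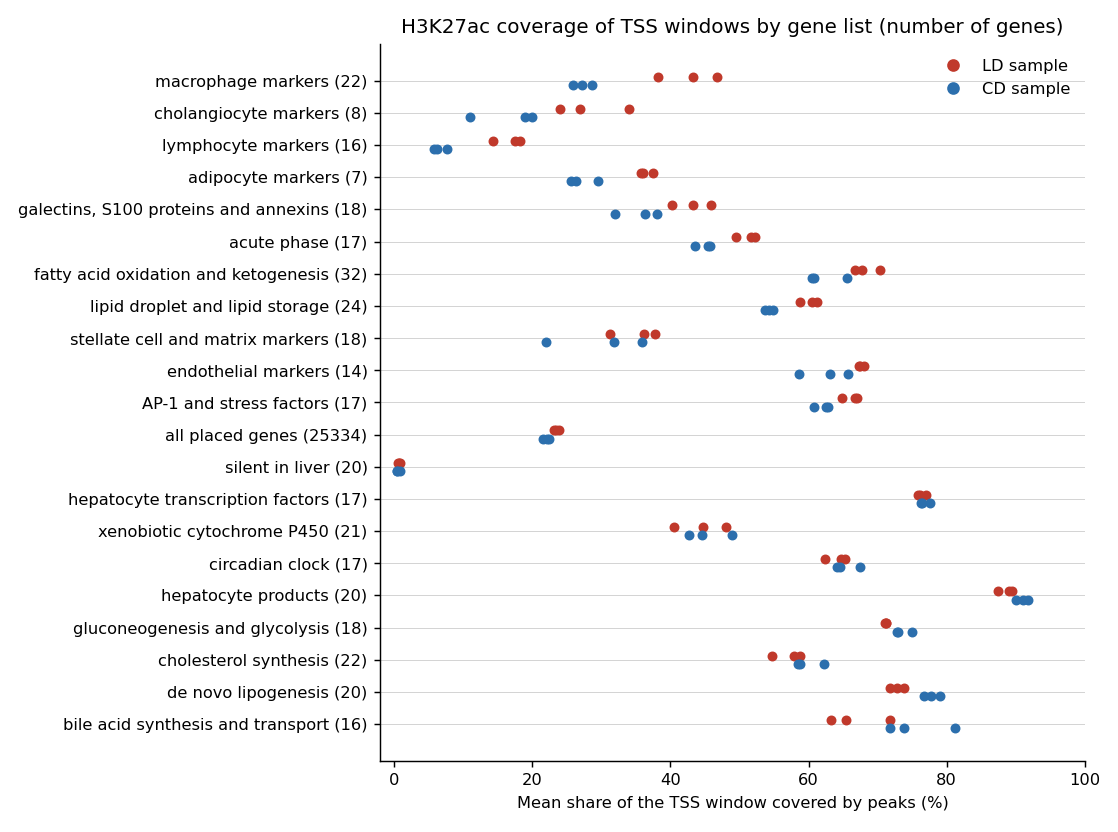
Mean percentage of the TSS window under peaks over the genes of each list (number measured in brackets) in each of 3 LD and 3 CD livers (points), ordered by the difference between the diets. The macrophage list shows the widest gap towards LD and the bile acid list the widest towards CD.

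Coverage and RNA went in opposite directions at fewer genes. With separation by at least 10 points towards LD, 25 genes were higher in RNA on CD and 329 on LD, and towards CD 1 gene was higher in RNA on LD and 121 on CD. Dhx9, an RNA helicase, was covered to 92%, 96% and 62.1% on LD and 58.1%, 36.1% and 60.1% on CD, with RNA of 47.3 ± 6.51 CPM on LD against 66.6 ± 8.44 CPM on CD (SD, n = 5; log2 fold change -0.49, edgeR adjusted p = 0.00391). Rpl3, a ribosomal protein, was covered to 59.6%, 53.6% and 47.6% against 41.6%, 28% and 24%, with a log2 fold change of -0.41. The differences at Dirc2, Creld2, 3110082I17Rik and Sipa1l3 were 17.3 to 21.7 points with lower RNA on LD. Limma called none of these 6 windows. The single gene of the reverse kind was Mnda, an interferon-inducible gene of myeloid cells, with no peak on LD, 18%, 16% and 10% of its window covered on CD and a log2 fold change of 0.86 in RNA (edgeR adjusted p = 0.0124).

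Features outside the coverage itself also differed between the groups of genes. Promoters with fewer than 5 CpG made up 23.0% of the 456 genes separated and higher in RNA on LD and 21.8% of the 174 on CD, beside 9.47% of the 12579 genes tested in both and 29.6% of all 24010 promoters. Peaks of Hnf4α, a nuclear receptor that drives hepatocyte genes, lay in the TSS window in all 4 libraries (2 per diet) at 69.5% of the CD group, 29.6% of the LD group and 39.5% of the 12579 genes. Peaks of C/EBPα, another hepatocyte factor, lay there in all 4 libraries at 50.6%, 22.4% and 30.3%. The letters GAGGAA, the core bound by PU.1 and other ETS factors, were found on either strand in 33.1% of the promoters of the LD group, 22.4% of the CD group, 27.1% of the 12579 genes and 27.4% of all promoters. For TTGCNNAA, a C/EBP site, the shares were 11.8%, 9.77%, 8.51% and 10%, and for AGGTCA, the core motif of nuclear receptors, 12.1%, 17.8%, 12.1% and 14.2%. The promoters of Itgax, Cx3cr1, Pnpla5 and Fabp5 hold none of these strings. The strings were chosen after values had been seen, a match is a run of letters and not a bound site, and no test was made.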

How the data were processed

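H3K27ac was measured in 3 LD and 3 CD livers and RNA in 5 and 5. The authors aligned ChIP-seq reads to mm9, removed duplicates and called peaks in each sample with SICER (window and gap of 200 bp). The deposited lists hold intervals only, with no reads or scores, so the precision of a peak is unknown, and the read totals given with the study entered no computation. RNA-seq reads were aligned by the authors with STAR and counted on genes with featureCounts, and the deposited counts are not normalized. For Hnf4α and C/EBPα, of the signal (tags scaled by HOMER) that the authors deposited only the peak positions were used. The authors' TPM values and table of fold changes and p-values were not used, nor were inputs, Hi-C and PCHi-C.

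Counts were tested with edgeR 4.0.16 (TMM, filterByExpr, robust quasi-likelihood), coverage percentages with limma 3.58.1 (trend, robust) in R 4.3.3, both with Benjamini-Hochberg adjustment, and single values by exact two-sided permutation over 6 livers. A window was tested if above 0 in at least 2 livers and not equal in all. Rows with symbols at more than 1 row or locus (1443) were not named. Peaks and coverage were computed in Python 3.11.15 with numpy 2.4.6, pandas 2.3.3 and scipy 1.17.1. The edgeR and limma fits were tested on simulated data. Of 100 genes changed 1.5-fold among 13403, edgeR recovered 69, and 91 of 100 changed 2-fold, with 10 false calls. Of 100 windows among 15205, limma recovered 31 when moved by 20 points and 75 by 40 points, with 3 false calls. The moved windows all had intermediate mean coverage, and no gain common to the livers of a diet was simulated. These rates therefore do not cover windows with no peak on the other diet. No peak lists or count columns were identical.

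Named genes were the 12 per direction with the largest difference in TSS coverage among those separated between the diets and called in RNA the same way, the 6 by body coverage, up to 6 per direction with at least 10 points and RNA in the opposite direction, 2 to 4 members of each gene list by size of difference, and the 5 expressed genes of highest CPM without a peak in the TSS window. Other list members named, such as Trem2, Cd14, Acaca, Cidec and the Kupffer cell markers, were chosen after their values were seen. Genes and lists were chosen with earlier results of these data known. Alternatives were DESeq2 1.42.0, its size factors, no filter, other windows and scales, centred samples, peaks of at least 1000 bp, peaks joined within 1000 bp, bodies without their first 5 kb, a block for the replicate number and each sample left out. An alternative with equal numbers of peaks was added after the data were seen.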

Additional observations from a re-analysis of the deposited data

Results flagged for a closer look

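Of the 42 genes named with RNA values, 5 had 1 mouse that stood apart from the other 4 of its diet in RNA. Over 84 groups of 5 mice chance flags about 1 in 20. In LD mouse 2, Selplg was at 7.85 CPM with the other LD mice at 3.35 to 4.15 CPM, Myo1f at 19.9 CPM with the others at 9.74 to 12.6 CPM, and Cyth4 at 21.3 CPM with the others at 9.44 to 11.9 CPM. The same mouse had the highest sum of macrophage markers, 2042 CPM. In CD mice, F630028O10Rik was at 2.92 CPM in mouse 2 with the others at 1.24 to 1.72 CPM, and Serpina4-ps1 was at 124 CPM in mouse 4 with the others at 27 to 34.3 CPM. What set these mice apart was not tested.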

How the results depend on the processing

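The number of TSS windows called, 77, stayed within 1.5 times in 4 settings and moved in 11. Among those that moved it was 40 with centred samples, 31 with peaks of at least 1000 bp, 43 with windows of 2 kb, 304 with windows of 10 kb, 30 with equal numbers of peaks and 0 with the replicate number as a block. It was 0 to 76 with 1 sample left out, and of these settings only the 76 without LD liver 1 had not moved. The number of gene bodies called, 110, was 188 on an arcsine square root scale, 57 with centred samples and 27 to 203 with 1 sample left out. The cause of these shifts was not tested. Replicate numbers did not pair samples: same-numbered livers correlated at -0.06 to 0.09 in window coverage, and 2 of 6 livers correlated best with their own number. With the number as a block no window and no body was called (0 and 0), and the cause of these losses was not tested. The RNA calls numbered 3173 under the block.

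Other results kept their direction. Peaks per sample differed by 3985 to 5805 and covered genome by 10.5 to 15.8 Mb with 1 sample left out, while the median width did not differ (0 bp) in any of those settings and differed by 133 bp (2200 against 2067 bp, exact permutation test, p = 0.4) when peaks within 1000 bp were joined. The relative coverage gain of genes higher in RNA on LD was 3.63 points in windows of 10 kb and 4.08 to 5.07 points with 1 sample left out, and that of genes higher on CD was -4.86 to -3.84 points. The correlations were 0.30 to 0.35 and 0.30 to 0.36. RNA calls were 3776 with DESeq2 and 2833 to 3479 with 1 mouse left out. Of the refits of the named genes' RNA, 348 kept the call, 22 lost it and none reversed: 8 for Arl5c, 5 for Dok2, 4 for Il21r, 3 for Selplg and 2 for Hsd3b2. Of their recomputed coverage differences, 255 stayed within the spread, 3 moved (all for the body of Dusp2) and none reversed.

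The lists hold called intervals, so a change of signal within a peak that stays called is not seen, nor is a peak just under the caller's threshold.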

Other observations

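Of the expressed genes, 656 had no H3K27ac peak in the TSS window of any liver, 648 of them with a symbol at a single row and locus. Of these, those of highest level were Rn45s, the precursor of ribosomal RNA, at 5369 ± 3136 CPM in the LD mice and 4338 ± 1400 CPM in the CD mice (SD, n = 5 each), Col18a1, a basement membrane collagen, at 648.5 ± 65.3 and 848.3 ± 45.2 CPM, Mup10, a major urinary protein, at 632 ± 251 and 756 ± 91.2 CPM, Mug2, a murinoglobulin, at 648 ± 95.3 and 627 ± 40.8 CPM, and Gnas, a G protein subunit, at 337 ± 38.9 and 312 ± 13.1 CPM. Peaks covered 45.8% to 60.6% of the body of Col18a1 and 17.3% to 23.4% of that of Gnas in the 6 livers, away from the start that the count table gives, and none of the body of Rn45s or Mup10. Of the 5, Col18a1 alone was called in RNA (log2 fold change -0.39, edgeR adjusted p = 0.0035).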
